A study of Mus musculus with 8 samples.

Results

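The replication-dependent histone genes encode the H1, H2A, H2B, H3 and H4 proteins that package newly copied DNA, and their levels were followed in hematopoietic cells of WT and Ripk3-KO mice. They were taken as every gene whose symbol begins with Hist1h, Hist2h, Hist3h or Hist4h, which gave 62 of the 29955 genes listed. There were 6 H1, 15 H2A, 18 H2B, 11 H3 and 12 H4 genes. The rule used gene symbols and no measured value, but it was set with earlier results of these data known. The Hist1 cluster on mouse chromosome 13 held 50 of them, the Hist2 cluster on chromosome 3 held 8, the Hist3 cluster on chromosome 11 held 3 and Hist4h4 on chromosome 6 stood alone. One H2B member, Hist3h2bb-ps, is a pseudogene.

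RNA was sequenced from LSK and LK cells sorted from bone marrow. LSK cells (Lin- Sca1+ Kit+) are the fraction that holds the stem cells and early multipotent progenitors. LK cells (Lin- Sca1- Kit+, as the study defines them) are mainly committed myeloid progenitors. The 8 libraries formed 4 groups of 2, namely WT LSK, Ripk3-KO LSK, WT LK and Ripk3-KO LK, on a background written as CD57BL6/J in the labels. Ripk3 encodes a kinase of the necroptosis pathway and was knocked out in the whole animal. The labels describe cells taken without treatment, whereas the study's methods describe all of these mice, WT and Ripk3-KO, as irradiated with a course of X-rays and sampled a month after the last dose. The age of the mice, and whether the libraries of a group came from separate animals, were not stated, so the p-values measure only the spread between these samples.

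Histone genes of this family are transcribed mainly in S phase, when histone protein has to be supplied to replicating DNA. Most of their mRNAs have no introns and end not in a poly(A) tail but in a short stem-loop, which binds the protein encoded by Slbp and is cut with the help of the U7 particle. The libraries were made with a kit that selects poly(A) mRNA, so the levels refer to the part of the histone mRNA that such a kit captured, and how large that part was could not be told from these data. H1 is the linker histone, H2A and H2B form dimers, and H3 and H4 form the tetramer at the core of the nucleosome.

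The stem-loop is shown because it is what sets these mRNAs apart. In the GRCm38 transcripts of GENCODE M21, 46 of the 62 members had at least 30 annotated bases after the last codon before the stop, and 40 of these 46 (87.0%) held a stem-loop of 16 bases within 100 bases of it, opening with GG, with a 6-base stem and a 4-base loop. The same pattern occurred in 20 of 19975 other genes (0.1%). It began 25 to 62 bases after that codon (median 35). There were 8 different stem-loop sequences, of which the commonest was carried by 21 members. Shown are the highest H1, H2A and H4 gene, and Hist1h3g, whose loop was carried by that member alone. Also shown are Hist1h2ap and Hist1h2bg, the Hist1 genes that passed the limma test as lower in Ripk3-KO LSK cells. The capitals below mark the stem-loop in up to 5 bases of flank on each side.
Hist1h1c: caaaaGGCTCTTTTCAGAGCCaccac
Hist1h2ac: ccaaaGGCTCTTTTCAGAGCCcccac
Hist1h2ap: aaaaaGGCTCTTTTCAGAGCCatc
Hist1h2bg: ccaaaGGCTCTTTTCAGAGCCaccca
Hist1h3g: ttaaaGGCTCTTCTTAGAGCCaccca
Hist1h4i: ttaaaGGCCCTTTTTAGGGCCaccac
The stem of the H4 gene Hist1h4i differed in sequence from that of the H1, H2A, H2B and H3 genes shown. In 22 of the 40 members the annotated transcript ran at least 100 bases past the stem-loop, and their median mean signal was 20.9 per kb of coding sequence, with a range of 0.266 to 244. In the other 18 the annotation ended sooner, and their median was 9.99 per kb, with a range of 0.675 to 158. Per kb of annotated transcript, which counts the bases after the coding sequence as well, the medians of these 22 and 18 members were 7.32 and 7.66.

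Promoters are shown for the 3 members that passed an adjusted p of 0.05 (limma) as lower in Ripk3-KO LSK cells. They run from 250 bases before to 50 bases after the RefSeq start (GRCm38.p6). Capitals on either strand mark the CCAAT box, the TATA box written TATAAA and the octamer core TTTGCAT. No motif among these contains another. RefSeq lists 2 genes under the name Hist1h2ap, and the one at the position that GENCODE gives for Hist1h2ap is printed.
Hist1h2ap (chr13:21833426-21833725, minus strand): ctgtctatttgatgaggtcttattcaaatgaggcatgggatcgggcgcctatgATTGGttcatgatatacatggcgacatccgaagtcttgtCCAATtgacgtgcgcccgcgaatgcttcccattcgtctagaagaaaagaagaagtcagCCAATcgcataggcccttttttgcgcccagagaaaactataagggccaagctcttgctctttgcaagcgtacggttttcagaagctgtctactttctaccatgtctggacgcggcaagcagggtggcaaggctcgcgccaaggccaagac
Hist1h2bg (chr13:23571150-23571449, plus strand): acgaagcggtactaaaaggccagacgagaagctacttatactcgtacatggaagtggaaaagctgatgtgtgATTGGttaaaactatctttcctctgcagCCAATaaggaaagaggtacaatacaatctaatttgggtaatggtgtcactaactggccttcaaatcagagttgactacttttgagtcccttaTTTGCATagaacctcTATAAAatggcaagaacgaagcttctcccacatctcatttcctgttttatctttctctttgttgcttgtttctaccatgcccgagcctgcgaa
Hist2h2aa2 (chr3:96240325-96240624, minus strand): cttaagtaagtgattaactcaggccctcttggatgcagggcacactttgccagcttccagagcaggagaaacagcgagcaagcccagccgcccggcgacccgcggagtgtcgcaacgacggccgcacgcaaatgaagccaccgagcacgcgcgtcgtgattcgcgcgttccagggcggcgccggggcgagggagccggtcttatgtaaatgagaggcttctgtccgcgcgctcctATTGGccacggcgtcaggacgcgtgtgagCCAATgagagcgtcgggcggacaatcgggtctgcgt
All 3 held CCAAT, and Hist1h2bg alone held TATAAA and TTTGCAT, which is known from H2B promoters. Among the 56 members with a promoter in the table, 85.7% held CCAAT against 37.4% of 32851 promoters of all genes. CCAAT was found for every H1, H2A, H2B and H3 member with a promoter and for 3 of the 11 H4 members. TATAAA was found for 57.1% of the members against 13.6% of all promoters. TTTGCAT was found for 25% against 4.63%, in 7 of 15 H2A, 6 of 15 H2B and 1 of 11 H4 promoters and in no H1 or H3 promoter. A member with more than 1 promoter was counted by the first listed. For Hist1h2be that promoter lacked TTTGCAT, whereas the other one listed for it held TTTGCAT. Of the members, 11 pairs were transcribed away from each other from starts 173 to 306 bases apart, in each case an H2A with an H2B gene, so that Hist1h2ae and Hist1h2bg (176 bases) share a promoter region.

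Values were reads per gene scaled to the library, headed FPKM in the files but not divided by gene length, and are called signal here. The libraries held 9782166 to 16280811 reads on genes, and 1 read corresponded to a signal of 0.0621 to 0.104. Ripk3 itself was at 162 and 168 in WT LSK, 3.38 and 1.08 in Ripk3-KO LSK, 144 and 149.7 in WT LK and 16.2 and 10.6 in Ripk3-KO LK, as its labels have it. Xist was at 108 or more in every WT library and at most 1.27 in every Ripk3-KO library, while the Y-linked Eif2s3y, Uty and Kdm5d were at 0 in every WT library and above 0 in every Ripk3-KO library, so genotype and the sex of the mice cannot be told apart (Ddx3y was listed at 0 in all 8). By limma at an adjusted p of 0.05, 8 of 11 stem cell markers were higher in LSK than in LK cells, and Cd48 was lower. The myeloid markers of LK cells were lower in LSK cells for 7 of 7.

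Histone genes were a small part of each library. Together the 62 members took 0.0569% to 0.103% of the reads, or 73474 reads over the 8 libraries, and between 53 and 59 members had at least 1 read in a library. Averaged across the 8 libraries, a signal of 1 or more was reached by 49 of 62 members (79.0%), against 53.1% of all listed genes. By class these were 5 of 6 H1, 12 of 15 H2A, 15 of 18 H2B, 9 of 11 H3 and 8 of 12 H4 genes. The members next to that level were Hist1h2bp at 1.08 and Hist1h3h at 0.988. A mean of at least 5 was reached by 29, and 34 had at least 1 in each of the 8 libraries. Hist1h2br was at 0 in every library. The 3 members known from the male germ line, Hist1h1t, Hist1h2aa and Hist1h2ba, had mean signals of 0.153, 0.347 and 0.0906.

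**Figure D1:**
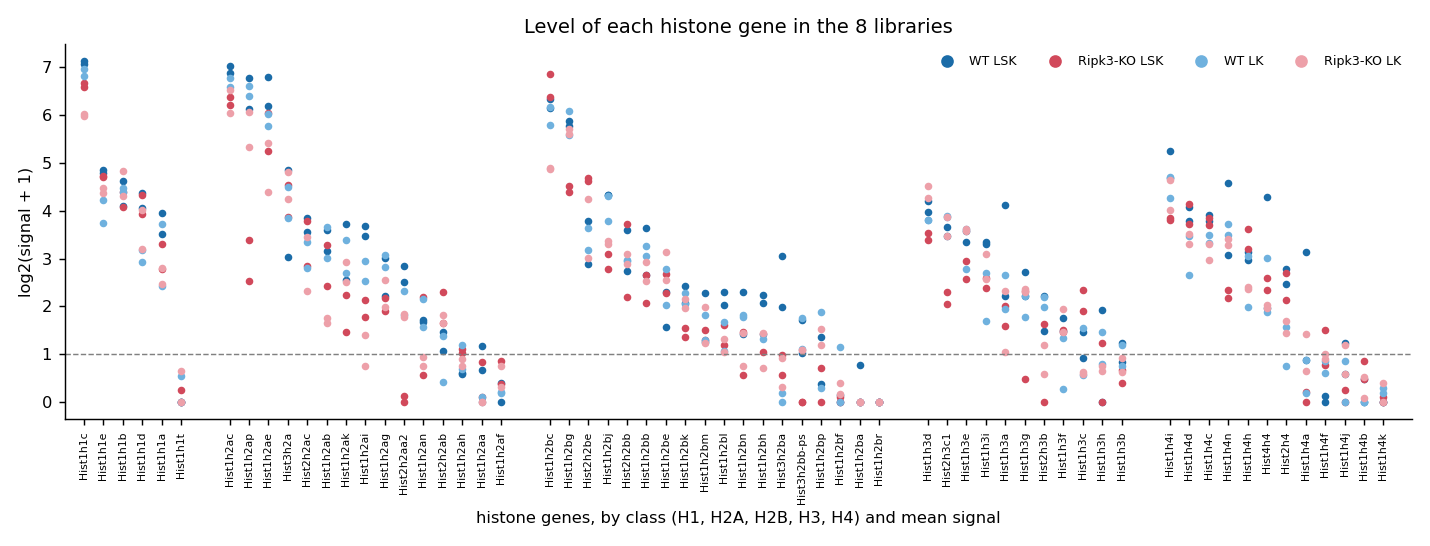
Level of each of the 62 histone genes as log2(signal + 1) in the 8 libraries, ordered by class and by mean signal, with 1 point per library coloured by group. The dashed line marks a signal of 1. Signal was scaled within each population, so LSK points cannot be read against LK points. A few genes in the H1, H2A and H2B classes lie far above the others, whereas no H3 gene has a mean signal above 14.8.

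The signal was concentrated in a few genes. The highest 4 members, Hist1h1c, Hist1h2ac, Hist1h2bc and Hist1h2ap, held 43.9% of the summed mean signal and the highest 10 held 69.0%. H2A genes made up 36.7% of the sum, H2B genes 23.3%, H1 genes 22.7%, H4 genes 9.80% and H3 genes 7.44%. Between genes the order depended on the length used as divisor, here with reads rescaled over all 8 libraries and not the deposited signal. Per kb of coding sequence the highest mean level was 244 for Hist1h2ac, followed by 169 for Hist1h2bc, 161 for Hist1h1c and 158 for Hist1h2ap. The highest H4 gene, Hist1h4i, reached 69.3 per kb and the highest H3 gene, Hist1h3d, reached 37.1 per kb. Per kb of annotated transcript the highest were Hist1h2ap at 128, Hist1h2ae at 80.2, Hist1h2bg at 76.3 and Hist1h1c at 65.8, and Hist1h2ac was at 38.3. The median over the members of a class was 25.3 per kb of coding sequence for H1, 12.8 for H2A, 5.61 for H2B, 8.63 for H3 and 14.0 for H4. Per kb of transcript these medians were 11.2, 10.1, 4.54, 5.70 and 2.29.

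Near-identical copies limit what these levels mean for a single gene. In a median of 54.4% of its 50-base windows a member had no other gene with the same window, and 26 of the 62 members had under 50%. For Hist2h2aa2 and Hist2h3c1 no window was unique, since both lie whole within the transcript annotated as Gm20634. Hist1h2ap shared 93.1% of its windows with Hist1h2ao, and Hist1h2br shared 99.8% with Hist1h2bq. Neither Hist1h2ao nor Hist1h2bq was among the genes listed, and values under Gm20634 were not used here. How reads that fit several copies were counted is not given in the sources used here. The level of such a member is therefore uncertain as a level of that gene alone.

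Ripk3-KO was compared with WT within each population. An effect of Ripk3-KO means this difference here, in which genotype and the sex of the mice cannot be told apart. In LSK cells the summed signal of the 62 members was 880.3 and 1050.1 in the WT libraries and 586 and 669.8 in the Ripk3-KO libraries. Both Ripk3-KO libraries thus lay below both WT libraries, and their mean was 65.0% of the WT mean. In LK cells the sums were 778 and 778 in WT and 528 and 644 in Ripk3-KO, again without overlap, at 75.3% of WT. Without Hist1h2ap the percentages were 70.8% and 77.4%. These sums over chosen genes were not tested, and in bulk samples fewer cells in S phase and less histone RNA per cell cannot be told apart.

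In LSK cells the sums of 4 of the 5 classes lay lower in Ripk3-KO. The H2A sum was 316 and 437 in WT and 156 and 215 in Ripk3-KO LSK cells (49.2% of WT), and the H3 sum was 61.0 and 77.7 against 34.8 and 37.7 (52.3%). H4 genes summed to 98.4 and 106 against 63.3 and 66.8 (63.5%), and H1 genes to 214 and 213 against 174 and 156 (77.3%). In each of these classes both Ripk3-KO libraries lay below both WT libraries. The H2B sums overlapped, at 191 and 216 against 158 and 194 (86.6%). Single members set much of the spread between classes. Without Hist1h2bc the H2B sums were 121 and 136 against 75.8 and 79.2, without overlap and at 60.3% of WT, and without Hist1h2bg they were at 105%. Without Hist1h2ap the H2A percentage was 61.9%. Differences between classes were not tested.

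In LK cells the sums of H1, H2A and H2B lay lower in Ripk3-KO. H2A genes summed to 297 and 329 in WT and 166 and 255 in Ripk3-KO LK cells (67.4%), H2B genes to 193 and 166 against 137 and 126 (73.1%), and H1 genes to 174 and 163 against 116 and 132 (73.4%), each without overlap. The H1 difference rested on Hist1h1c, without which the H1 sums were 51.2 and 51.7 against 51.8 and 69.7 (118%), and H2B without Hist1h2bc was at 88.0%. The H4 sums overlapped at 67.1 and 59.8 against 52.0 and 65.8 (92.8%), as did the H3 sums at 47.0 and 60.5 against 56.9 and 64.7, where the Ripk3-KO mean was 113% of WT. Whether a class differed between the populations in this respect was not tested.

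**Figure D2:**
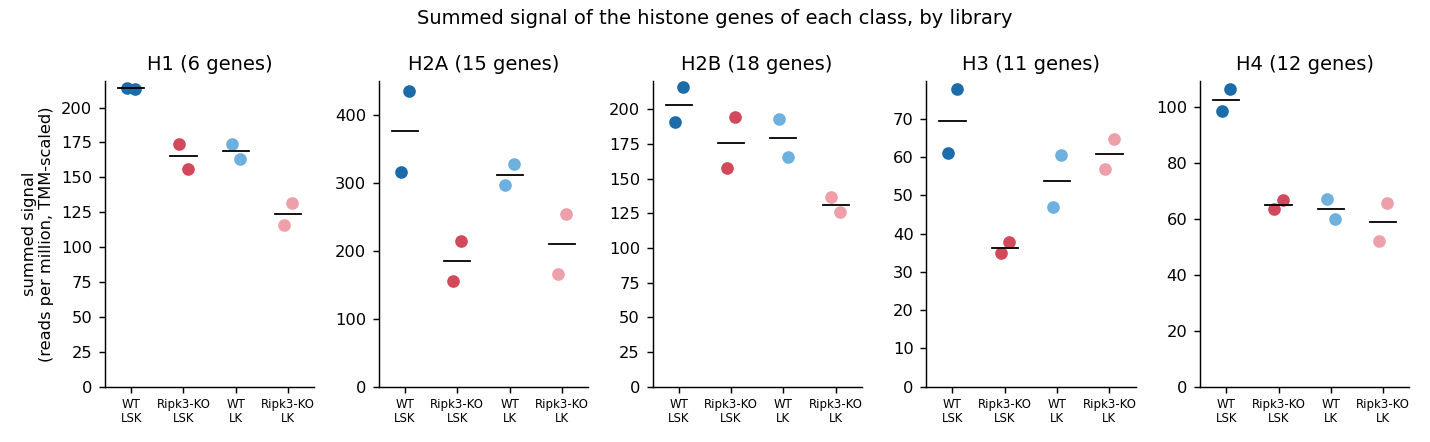
Summed signal (reads scaled to library size with TMM factors) of the genes of each histone class in every library, with 1 point per library, 2 libraries per group and a line at their mean. Each panel has its own axis from 0. The scaling was done within each population, so LSK points cannot be read against LK points. In LSK cells the Ripk3-KO points lie below the WT points for H1, H2A, H3 and H4, and in LK cells for H1, H2A and H2B.

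Tested gene by gene, 3 of the 48 members that averaged a signal of 1 or more in the LSK libraries passed an adjusted p of 0.05 between Ripk3-KO and WT LSK cells, all of them lower (limma with Benjamini-Hochberg adjustment over 16817 genes, of which 2.16% passed in either direction and 1.27% were lower). They were the H2A genes Hist1h2ap and Hist2h2aa2 and the H2B gene Hist1h2bg. Of the 48, 41 had a log2 difference below 0, as had 50.6% of all genes tested, and the median was -0.65. Both Ripk3-KO libraries lay below both WT libraries for 24 of the 48, against 23.2% of all genes tested, and above them for 5, against 21.4%. Over all 62 members, tested or not, these counts were 27 and 7, and 28 overlapped. The share over all listed genes was not taken for them, and the members not tested averaged under 1 in the LSK libraries. The members share sequence and the sum of the reads, so these counts describe the list and are no independent tests of it.

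Hist1h2ap (chr13:21833026-21833507, 1 exon, minus strand) had the largest difference of any member. Its signal was 68.4 and 109 in WT LSK, 4.74 and 9.49 in Ripk3-KO LSK, 82.9 and 96.8 in WT LK, and 39.2 and 66.3 in Ripk3-KO LK cells. The Ripk3-KO LSK libraries stood below the 6 others, and its mean was 12.5-fold lower there than in WT LSK cells. The log2 difference in LSK cells, on the log2(signal + 1) scale used throughout, was -3.49 ± 0.35 (SE, limma adjusted p = 2.95e-06). In LK cells both Ripk3-KO libraries were also below both WT libraries, with a difference of -0.80 ± 0.34 (adjusted p = 0.649). The difference between these 2 effects was itself tested and was -2.69 ± 0.49 (SE, limma adjusted p = 0.0111). It kept its sign but did not pass without WT LSK replicate 2 (limma adjusted p = 0.134), without WT LK replicate 1 (0.12) or without Ripk3-KO LK replicate 2 (0.138).

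Hist1h2bg (chr13:23571396-23572013, 1 exon, plus strand) was at 57.7 and 53.8 in WT LSK, 22.0 and 20.05 in Ripk3-KO LSK, 66.8 and 47.0 in WT LK and 47.6 and 51.6 in Ripk3-KO LK cells. Its difference in LSK cells was -1.36 ± 0.29 (SE, limma adjusted p = 0.012), whereas the LK libraries overlapped. Its divergent partner Hist1h2ae was at 71.6 and 109.6 in WT against 36.9 and 64.8 in Ripk3-KO LSK cells, without overlap and without passing the test (-0.84 ± 0.34, adjusted p = 0.195).

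Hist2h2aa2 (chr3:96239749-96240276, 1 exon, minus strand) was low throughout, at 6.16 and 4.66 in WT LSK, 0 and 0.0978 in Ripk3-KO LSK, 4.01 and 2.52 in WT LK, and 2.41 and 2.61 in Ripk3-KO LK cells. These were 107 reads in the WT and 1 read in the Ripk3-KO LSK libraries, a ratio of 123 with an exact 95% counting interval of 21.6 to 4902, and the interval covers counting error only. The difference was -2.60 ± 0.61 (SE, limma adjusted p = 0.0257). Without any 1 of the LSK libraries, and with the LSK libraries fitted alone, Hist1h2ap alone passed.

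Among the other H2A members Hist1h2ac, the highest in mean signal, was at 117 and 128 in WT against 72.7 and 82.0 in Ripk3-KO LSK cells and at 94.8 and 109 against 65.4 and 90.4 in LK cells. Neither pair overlapped and neither passed the test (adjusted p = 0.139 and 0.838 by limma). Hist3h2a had overlapping groups in both populations, with 7.15 to 27.9 in LSK and 13.4 to 27.1 in LK libraries. In all, 10 of 12 H2A members tested in LSK cells and 10 of 12 in LK cells were below 0.

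Of 13 H2B members tested in LSK cells 10 were below 0 and 3 above. Hist1h2bc, whose annotated gene has a second exon, was at 70.2 and 79.5 in WT against 81.8 and 115 in Ripk3-KO LSK cells, and at 71.1 and 54.5 in WT against 28.7 and 28.3 in Ripk3-KO LK cells. Its Ripk3-KO libraries were thus above WT in LSK and below WT in LK cells, with log2 differences of 0.37 ± 0.26 and -1.10 ± 0.26 (limma adjusted p = 0.475 and 0.0685). The difference between the effects was 1.48 (adjusted p = 0.116). Hist2h2be was at 12.7 and 6.42 in WT against 23.7 and 24.8 in Ripk3-KO LSK cells (1.32 ± 0.50, adjusted p = 0.168), and Hist1h2bj at 19.2 and 19.1 against 7.56 and 5.87 (-1.39 ± 0.46, adjusted p = 0.117).

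Of the linker histones, Hist1h1c was at 134 and 139 in WT against 101 and 94.6 in Ripk3-KO LSK cells, and at 123 and 111 in WT against 64.1 and 62.0 in Ripk3-KO LK cells. It was below WT in both populations by more than the spread of the libraries, yet did not pass across all genes, with log2 differences of -0.47 ± 0.21 and -0.88 ± 0.21 (limma adjusted p = 0.243 and 0.0685). Hist1h1e, Hist1h1b and Hist1h1d stayed between 6.56 and 28.1 in all libraries, and their differences were between -0.12 and -0.08 in LSK and between 0.13 and 0.56 in LK cells.

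H3 and H4 members were lower in level, and none passed the test in either population. Hist1h3d was at 17.5 and 14.8 in WT against 9.49 and 10.7 in Ripk3-KO LSK cells and at 13.0 and 12.9 against 18.2 and 21.8 in LK cells, so its groups stood apart in opposite directions (differences of -0.63 and 0.59, adjusted p = 0.447 and 0.883 by limma). The difference between those effects did not pass either (adjusted p = 0.5). Hist2h3c1 was at 10.03 and 11.6 against 3.13 and 3.91 in LSK cells (-1.39 ± 0.49, adjusted p = 0.144), and Hist1h3e and Hist1h3i were also without overlap and lower there. Hist1h4i was at 24.5 and 37.1 in WT against 13.5 and 13.0 in Ripk3-KO LSK cells (-1.13 ± 0.39, adjusted p = 0.139), and Hist1h4n at 7.45 and 23.0 against 4.10 and 3.52 (-1.57 ± 0.55, adjusted p = 0.139). Hist1h4d and Hist1h4c had overlapping groups in LSK cells, with differences of -0.00241 and -0.06.

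**Figure D3:**
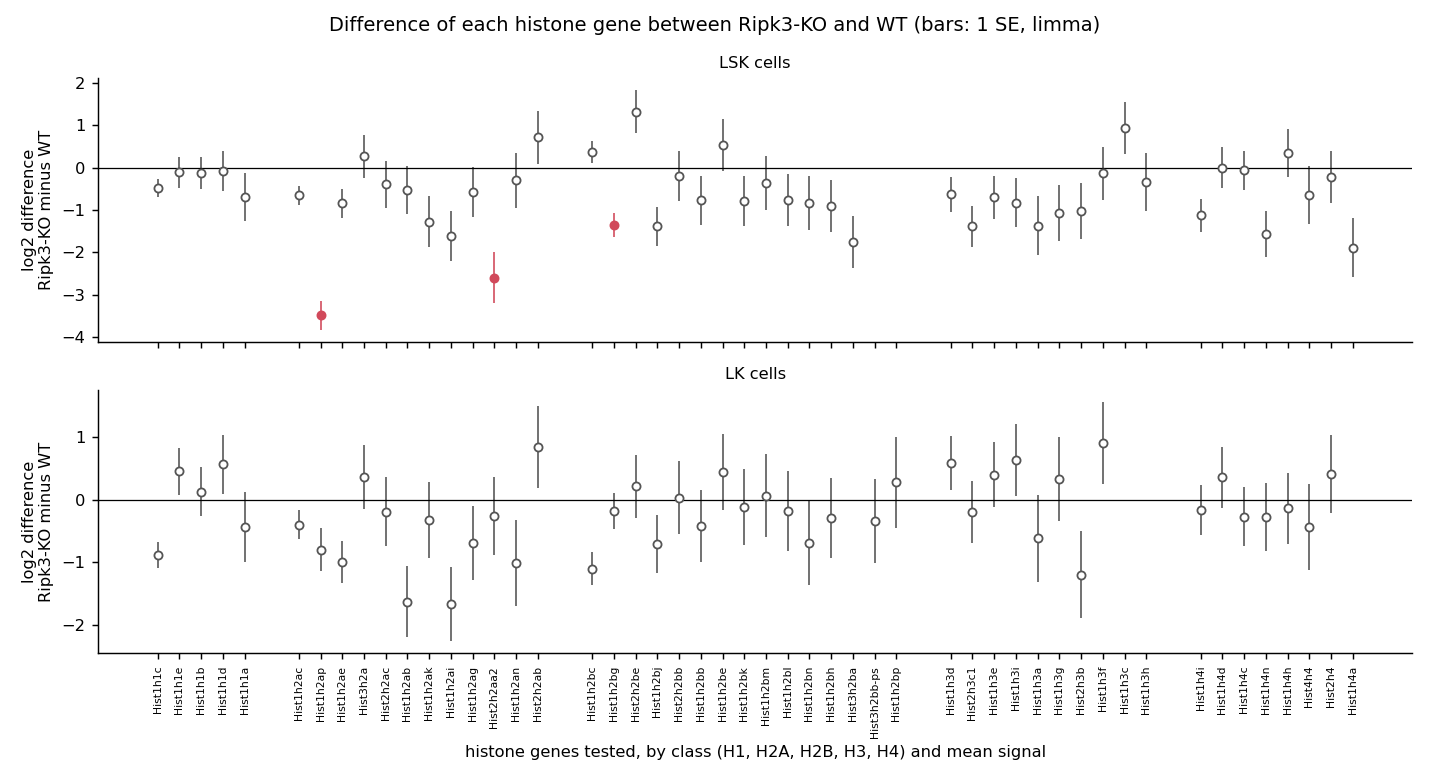
Log2 difference of each tested histone gene, Ripk3-KO minus WT, in LSK cells (top, 48 genes) and LK cells (bottom, 46 genes), on the log2(signal + 1) scale with bars of 1 SE from limma. Filled points passed an adjusted p of 0.05, which 3 genes did in LSK cells and 0 in LK cells. Most points in LSK cells lie below 0.

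In LK cells 0 of the 46 members tested passed (0.473% of 13949 genes did), with 6 at an unadjusted p under 0.05 (6.56% of all genes), all of them lower. By edgeR 0 passed, and by DESeq2 2 did, Hist1h1c and Hist1h2bc, both lower, as they did when the LK libraries were fitted alone. Of the 46, 29 were below 0, as were 49.0% of all genes tested, with a median of -0.20. Both Ripk3-KO libraries lay below both WT libraries for 17, against 19.9% of all genes, and above them for 6, against 20.1%. Of 49 members tested for an effect of Ripk3-KO that was unequal in LSK and LK cells, Hist1h2ap alone passed (0.358% of 15901 genes did).

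Members were also set apart by their share of unique windows. All 19 tested members with under 50% of windows unique had a difference below 0 (median -0.84), and their signal summed to 183 and 265 in WT and 61.0 and 75.5 in Ripk3-KO LSK cells, or 30.5% of WT and 45.1% without Hist1h2ap. Of the 29 with 50% or more, 22 were below 0 (median -0.36), and the sum was 697 and 785 against 525 and 594, or 75.5% of WT. Members on both sides of the line were far down. Among those with more unique windows Hist1h4a was at -1.89 and Hist3h2ba at -1.75. Both were low in mean signal (1.49 and 1.63), and neither passed (limma adjusted p = 0.159 and 0.143). Among those with fewer unique windows Hist2h2bb at -0.21 was near 0. In LK cells the sums were 67.5% and 78.0% of WT. This split was chosen after the values were seen, and the part of multiply placed reads in the differences was not tested.

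**Figure D4:**
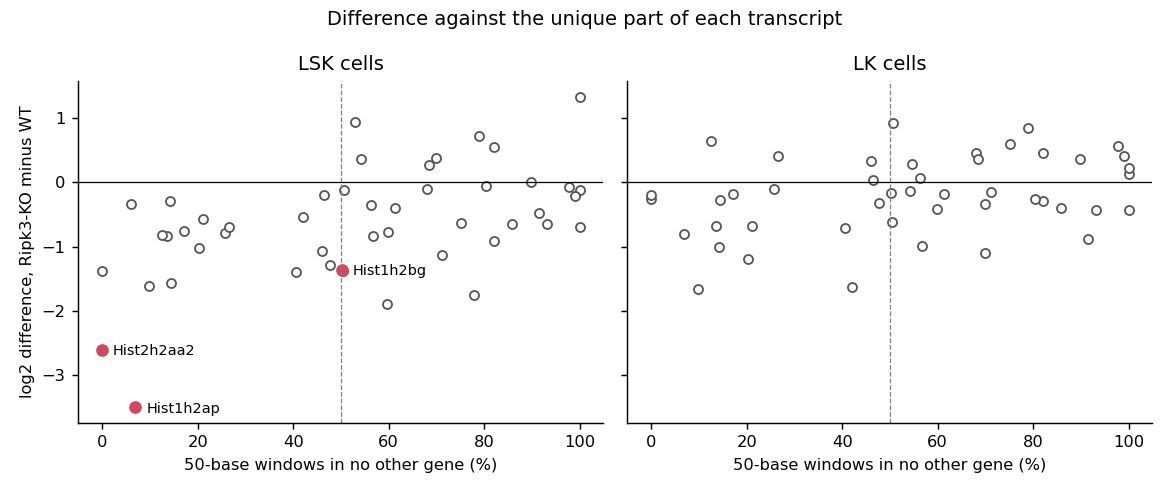
Log2 difference (Ripk3-KO minus WT) of each tested histone gene against the share of its 50-base transcript windows found in no other gene, in LSK (left) and LK cells (right). The dashed line marks 50% and filled points passed an adjusted p of 0.05. To the left of the line all 19 points in LSK cells lie below 0, while 22 of 29 do to the right.

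Few genes that make, process or place histone mRNA and protein passed the test between Ripk3-KO and WT. Of 23 genes for histone transcription and 3' end processing, 0 passed in LSK or LK cells by limma, with medians of 0.10 and 0.02. At an unadjusted p under 0.05 were 6 and 2 of them, beside 3011 of 16817 and 915 of 13949 genes in all. Slbp was at 233 and 268 in WT against 224 and 207 in Ripk3-KO LSK cells. Of 19 histone chaperones 0 passed in either population (5 and 1 unadjusted), with medians of 0.09 and -0.08. Of 39 S phase genes Dut, which keeps uracil out of DNA, alone passed in LSK cells. It was higher there at 146 and 155 against 65.7 and 74.9 in WT, and 0 S phase genes passed in LK cells. In LSK cells 13 of the 39 were below 0 (median 0.08), and in LK cells 27 were (median -0.13). Of 18 genes of G2 and mitosis, Top2a (281 and 330.0 against 186 and 179) passed as higher in Ripk3-KO LSK cells. Ccnb1 (84.1 and 69.0 against 142 and 128) passed as lower there, and 0 passed in LK cells (2 unadjusted). Below 0 were 13 of the 18 in LSK cells (median -0.10) and 7 in LK cells (median 0.07).

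Some of the variant histone genes, a list that includes genes expressed outside S phase, also differed in LSK cells. Of 9 tested, H3f3a (21.8 and 30.8 against 75.5 and 81.8) and H3f3b (2465 and 2841 against 4117 and 4346) passed as lower in Ripk3-KO, both coding for the H3.3 protein, and H2afv passed as higher (30.1 and 34.4 against 2.18 and 4.56). In LK cells 0 of 8 passed. The related H2afz was listed at 0 in each Ripk3-KO library and at 1.49 or less in WT.

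Markers of other cells moved with the genotype too. Of 7 neutrophil marker genes, 5 passed as higher in Ripk3-KO in LSK and 4 in LK cells. The summed signal of the 7 was 667 to 718 in WT LSK, 2177 to 2587 in Ripk3-KO LSK, 737 to 751 in WT LK, and 1599 to 1603 in Ripk3-KO LK cells. None of the 7 was at 0 in both libraries of a group. Of 11 stem and progenitor markers Flt3 passed as higher in Ripk3-KO LSK cells, and of 9 erythroid and megakaryocyte markers Gata1 passed as lower in LSK and Car2 in LK cells. Of the myeloid progenitor, mast cell, macrophage, T cell, B cell, NK cell and stromal markers 0 passed in either population by limma. Over these lists 4 and 3 were at an unadjusted p under 0.05, as were 3011 of 16817 and 915 of 13949 genes in all. The part of the neutrophil signal and of sex in the histone differences was not tested.

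The last comparison set LSK against LK cells over both genotypes, with reads rescaled over all 8 libraries because the deposited values had been scaled within each population. The rescaled histone sum was 773 and 922 in WT LSK, 519 and 586 in Ripk3-KO LSK, 887 and 878 in WT LK and 599.5 and 737 in Ripk3-KO LK cells, so in WT the populations overlapped and in Ripk3-KO the LSK libraries were the lower. Of 49 members tested, 4 passed (34.0% of 15757 genes did, 20.2% lower and 13.7% higher in LSK cells), 25 were below 0, as were 46.9% of all genes, and the median was -0.04. The median depended on the scaling, since with quantile normalization 38 of 49 were below 0 with a median of -0.41, and with the deposited values 21 were below 0 with a median of 0.18, where the median of all genes was 0.39 in place of 0.07. Hist1h2ap (-1.75 ± 0.24, limma adjusted p = 6.33e-06), Hist1h2bg (-0.97 ± 0.20, adjusted p = 0.000782) and Hist2h3c1 (-1.23 ± 0.35, adjusted p = 0.00881) were lower in LSK cells, and Hist1h2bc (0.63 ± 0.19, adjusted p = 0.0118) was higher.

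The populations were also compared within each genotype. In WT cells alone Hist3h2ba was the 1 member that passed, at 101 reads in the LSK against 2 reads in the LK libraries, a ratio of 55.1 with an exact 95% counting interval of 14.9 to 461 that covers counting error only and not the spread between samples (23.9% of all genes passed). In Ripk3-KO cells alone 6 members passed, among 20.2% of all genes, with Hist1h2ap at -3.09, Hist1h2bg at -1.56, Hist2h3c1 at -1.82, Hist2h2aa2 at -1.89 and Hist1h3d at -1.27 and Hist1h2bc at 1.37 on the log2 scale. Of these, Hist1h2ap alone also passed the test of unequal Ripk3-KO effects in the populations.

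Most genes of S phase were lower in LSK than in LK cells. Of 39 tested, 37 were below 0, with a median of -0.78. An adjusted p of 0.05 by limma was passed by 28 as lower and by 0 as higher, against 20.2% and 13.7% of all genes. Among the 28 were Rrm2 at -1.75 and Mcm5 at -1.31, which serve nucleotide supply and replication licensing. Of 18 genes of G2 and mitosis 16 passed as lower (median -0.86), and of 19 chaperones 12 did (median -0.65). Of the 23 genes for histone mRNA, 12 passed as lower, Slbp (-0.73 ± 0.13, limma adjusted p = 0.000132) and Casp8ap2 (-1.01 ± 0.21, adjusted p = 0.000645) among them, and Zcchc11 passed as higher (0.67 ± 0.23, adjusted p = 0.0303). Of 9 variant histones 3 passed as higher (H1f0, H2afv and H2afy2) and 2 as lower (H2afx and H2afj). The histone median of -0.04 stood above those of the S phase, mitosis, chaperone and histone processing lists on this scale, but with quantile normalization it was -0.41 beside -0.37, -0.46, -0.34 and -0.28 for those lists, and the difference between the lists was not tested.

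**Figure D5:**
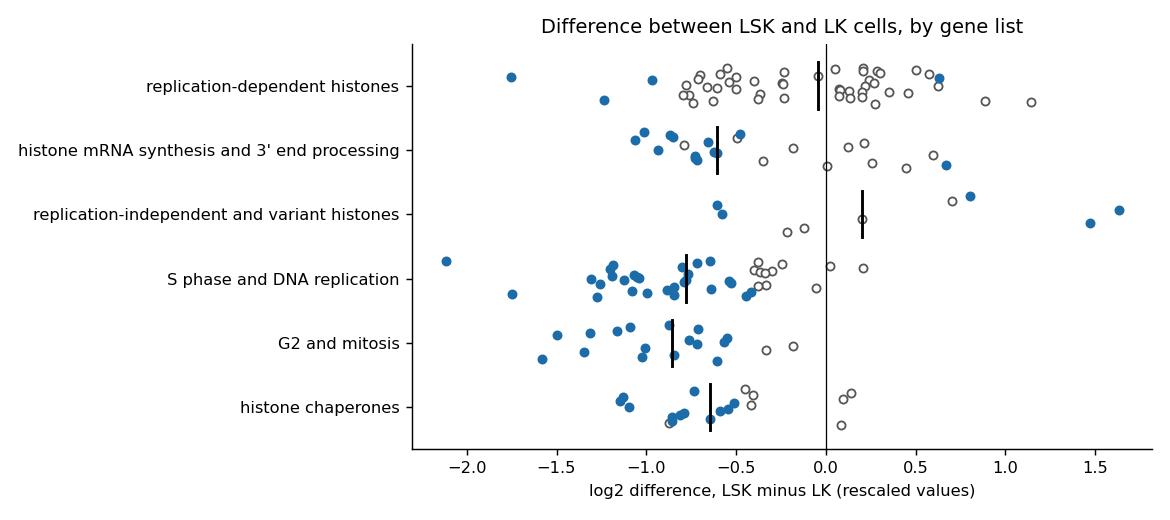
Log2 difference between LSK and LK cells (rescaled values, both genotypes) for each tested gene of the histone genes and of 5 related lists, with a bar at each list's median and filled points for an adjusted p of 0.05 by limma. The histone median is -0.04 here and -0.41 with quantile normalization, while the S phase, mitosis, chaperone and histone processing medians lie between -0.86 and -0.61 here and between -0.46 and -0.28 with quantile normalization.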

How the data were processed

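RNA of 8 libraries was sequenced, and per the labels the reads were aligned with TopHat to mm9 (submitters' processing notes). The deposited signal values, headed FPKM by the authors, were whole reads times a constant per library (100% of values within 0.01 of a whole read), namely CPM scaled by TMM factors within each population. Lengths did not enter. Limma (3.58.1 in R 4.3.3) was fitted on log2(signal + 1) with 4 group means over genes with a mean of at least 1 in the libraries compared, Benjamini-Hochberg adjusted at 0.05. LSK and LK cells were compared on recovered reads rescaled together. Alternatives used edgeR 4.0.16, DESeq2 1.42.0, other filters and pseudocounts, quantile normalization, no variance trend, the replicate number as a block and leaving out each library. Tests were checked on simulated data.

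Named were the 4 highest members per class, members past the threshold, and leading genes of lists for histone processing, variant histones, S phase, mitosis, chaperones and cell markers. Members and lists were chosen with earlier results of these data known. Positions, windows and stem-loops came from GENCODE M21 (GRCm38), promoters from RefSeq, matched by symbol. Precision is set by 2 libraries per group and by reads per gene. All columns of values were used (0 left out).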

Additional observations from a re-analysis of the deposited data

Results flagged for a closer look

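The effect of Ripk3-KO differed between LSK and LK cells, by the test of the difference itself (limma, Benjamini-Hochberg over 15901 genes), for 1 histone gene and for 2 genes of the related lists. Hist1h2ap lay further below WT in LSK than in LK cells (difference of the log2 differences -2.69 ± 0.49 SE, adjusted p = 0.0111), at 4.74 and 9.49 in Ripk3-KO LSK libraries against 39.2 or more in the 6 others. Dut, an S phase gene, differed by 1.49 ± 0.32 (adjusted p = 0.0343), being higher in Ripk3-KO LSK cells and at 62.3 and 56.8 against 76.9 and 81.4 in LK cells. S100a8, a neutrophil marker, differed by 1.23 ± 0.24 (adjusted p = 0.0216), at 624 and 869 against 231 and 273 in LSK cells and at 566 and 528 against 433 and 446 in LK cells.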

How the results depend on the processing

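The count of 3 histone genes lower in Ripk3-KO LSK cells was 5 by DESeq2, 1 with the LSK libraries fitted alone and 1 without any single LSK library, Hist1h2ap each time, while Hist1h2bg and Hist2h2aa2 kept their direction with limma adjusted p of 0.0575 to 0.0858 and 0.086 to 0.12 in those 5 fits. In LK cells the count of 0 was 2 by DESeq2 and 2 in LK libraries alone, and 0 without any single library. For the difference of the effects, the count of 1 became 0 without a filter, 0 without a variance trend and 2 by DESeq2, and ranged from 0 to 1 without single libraries, being 0 without WT LSK replicate 2, WT LK replicate 1 or Ripk3-KO LK replicate 2. For LSK against LK cells, the count of 4 was 8 with quantile normalization, 8 with the deposited values, 7 by DESeq2, 7 without a trend and 1 in WT alone, and ranged from 3 to 6 without single libraries. Over all genes the counts of 363 in LSK cells, 66 in LK cells and 57 for the difference ranged from 99 to 616, 3 to 170 and 2 to 154. A mean of at least 5 in place of 1 left 29 of 49 genes, and leaving out a library left 47 to 50.

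The summed signal in Ripk3-KO LSK cells, 65.0% of WT, was 73.5% without the 3 genes that passed and 59.8% to 71.3% without single libraries, and in LK cells, at 75.3%, was 67.8% to 82.7%. These alternatives, and those in the report that leave out a member, divide by transcript length or give list medians on other scales, were chosen after the data were seen. The replicate numbers were no sign of pairing (correlation of deviations -0.145 to 0.051), and with the replicate block 3, 0, 1 and 4 histone genes passed in the 4 comparisons, which changed no call. With the numbers of the Ripk3-KO LK libraries crossed, also chosen then, 4 histone genes passed for LSK against LK cells, among 5687 genes in all.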
